A study of Rattus norvegicus with 6 samples.

Results

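6 genes of local glucocorticoid action were followed in fat taken from beside the pancreas of Wistar rats: the activating enzyme Hsd11b1, the receptors Nr3c1 and Nr3c2, and the hormone-responsive genes Fkbp5, Tsc22d3 and Sgk1. They are 6 of the 14217 genes with a single symbol on the array, and every probe set annotated to one of them alone was used, 8 in all: 2 each for Nr3c1 and Fkbp5 and 1 for each of the other 4 genes. The 3 lean rats (14, 18 and 19) ate standard chow, and the 3 obese rats (29, 32 and 42) were fed an energy-rich cafeteria diet over 30 days; no source used here gives their sex or age. RNA of each rat was hybridised to 1 Affymetrix rat expression array, and each value is an RMA expression level on the log2 scale, where 1 unit is a 2-fold difference. Each number stands for a different rat of an outbred strain, so the tests measure the spread between these rats together with any handling difference.

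In the rat, corticosterone is the main glucocorticoid. Inside cells 11beta-hydroxysteroid dehydrogenase type 1 (Hsd11b1) regenerates it from inert 11-dehydrocorticosterone, and the type 2 enzyme (Hsd11b2) does the reverse. The active steroid binds the glucocorticoid receptor (Nr3c1) and, with higher affinity, the mineralocorticoid receptor (Nr3c2), and the occupied receptor enters the nucleus and binds DNA. Fkbp5, a co-chaperone that lowers the receptor's affinity for the hormone, Tsc22d3, the leucine zipper protein GILZ that restrains inflammatory transcription factors, and Sgk1, a kinase that acts on ion transport and insulin-like signalling, are among the best known genes that glucocorticoids induce. Raised Hsd11b1 in visceral fat has been described in some obesity models.

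In RefSeq on the GRCr8 build, Hsd11b1 lies at chr13:107277526-107327462, Nr3c1 at chr18:31522783-31644508, Nr3c2 at chr19:47619853-47964089, Fkbp5 at chr20:6458931-6577227, Tsc22d3 at chrX:109006410-109066389 and Sgk1 at chr1:24799391-24916886. The start regions of the 3 target genes are shown because their levels are compared below as readouts of the receptor. The reference table holds start windows for 4 of the 6 genes (Nr3c1, Fkbp5, Tsc22d3 and Sgk1), 9 windows in all, from RefSeq on the GRCr8 build. The 250 bases before 1 start of each target gene are printed 5' to 3' on the gene's strand, which is the minus strand for all 3. Capitals mark the TATA box letters TATAAA, searched on the gene's strand. The windows lie at chr20:6543556-6543805 for Fkbp5, chrX:109010035-109010284 for Tsc22d3 and chr1:24804832-24805081 for Sgk1.
Fkbp5: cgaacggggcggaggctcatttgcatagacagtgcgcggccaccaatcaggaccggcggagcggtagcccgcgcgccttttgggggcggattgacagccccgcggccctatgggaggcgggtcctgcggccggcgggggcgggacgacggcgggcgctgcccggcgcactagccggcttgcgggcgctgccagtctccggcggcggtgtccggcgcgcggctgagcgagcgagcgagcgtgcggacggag
Tsc22d3: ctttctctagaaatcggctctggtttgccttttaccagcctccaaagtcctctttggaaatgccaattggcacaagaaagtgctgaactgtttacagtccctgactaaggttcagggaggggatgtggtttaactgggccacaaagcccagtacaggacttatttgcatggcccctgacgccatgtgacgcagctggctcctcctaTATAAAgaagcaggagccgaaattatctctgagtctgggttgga
Sgk1: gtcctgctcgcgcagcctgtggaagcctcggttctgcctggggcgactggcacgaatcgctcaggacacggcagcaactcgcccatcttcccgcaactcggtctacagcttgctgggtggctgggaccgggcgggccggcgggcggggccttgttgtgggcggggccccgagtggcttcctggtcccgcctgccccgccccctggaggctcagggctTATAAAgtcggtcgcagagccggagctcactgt

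TATAAA was found in 3 of the 9 windows, 1 of the 3 of Tsc22d3 and 2 of the 3 of Sgk1, and in 8.06% of all 33469 windows of 250 bases. In the windows shown it began 44 bases before the Tsc22d3 start and 33 bases before the Sgk1 start. The single Fkbp5 window had no TATAAA and was 76.0% G or C, against 49.2% for the Tsc22d3 window and 69.6% for the Sgk1 window. The half-site AGAACA of the glucocorticoid response element, searched on both strands, was found in 0 of the 9 windows and in 17.5% of all windows. The full palindromic element (AGAACA, 3 bases of any kind, then TGTTCT), which contains that half-site on each strand, was found in 0 of the 9 and in 4 of the 33469 windows. These letters are thus not in these short windows; much binding of the receptor is known to lie far from gene starts. The arrays do not tell which start a transcript came from.

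Between lean and obese rats no member passed the test. Limma called 0 of the 8 probe sets at an adjusted p under 0.05, against 0.00966% of all 31042 probe sets (3 probe sets), and 1 of the 8 had an unadjusted p under 0.05, against 11.8% of all (6.5% higher and 5.33% lower in obese rats). Tsc22d3 was that probe set, and it was the only one of the 8 whose lean and obese rats did not overlap, against 18.8% of all probe sets (11.8% higher and 7.02% lower). With 8 probe sets, 1 is 12.5%. The enzyme and the main receptor differed by little, the targets went in both directions, and the largest differences were Tsc22d3, higher on the obese arrays, and Sgk1, lower. Of the 8 probe sets 2 were higher and 6 lower, where 54.7% of all probe sets were higher, with a median difference of -0.11 against 0.020 over all probe sets. All but the dimmer Nr3c1 probe set lay above the median level of all probe sets.

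**Figure D1:**
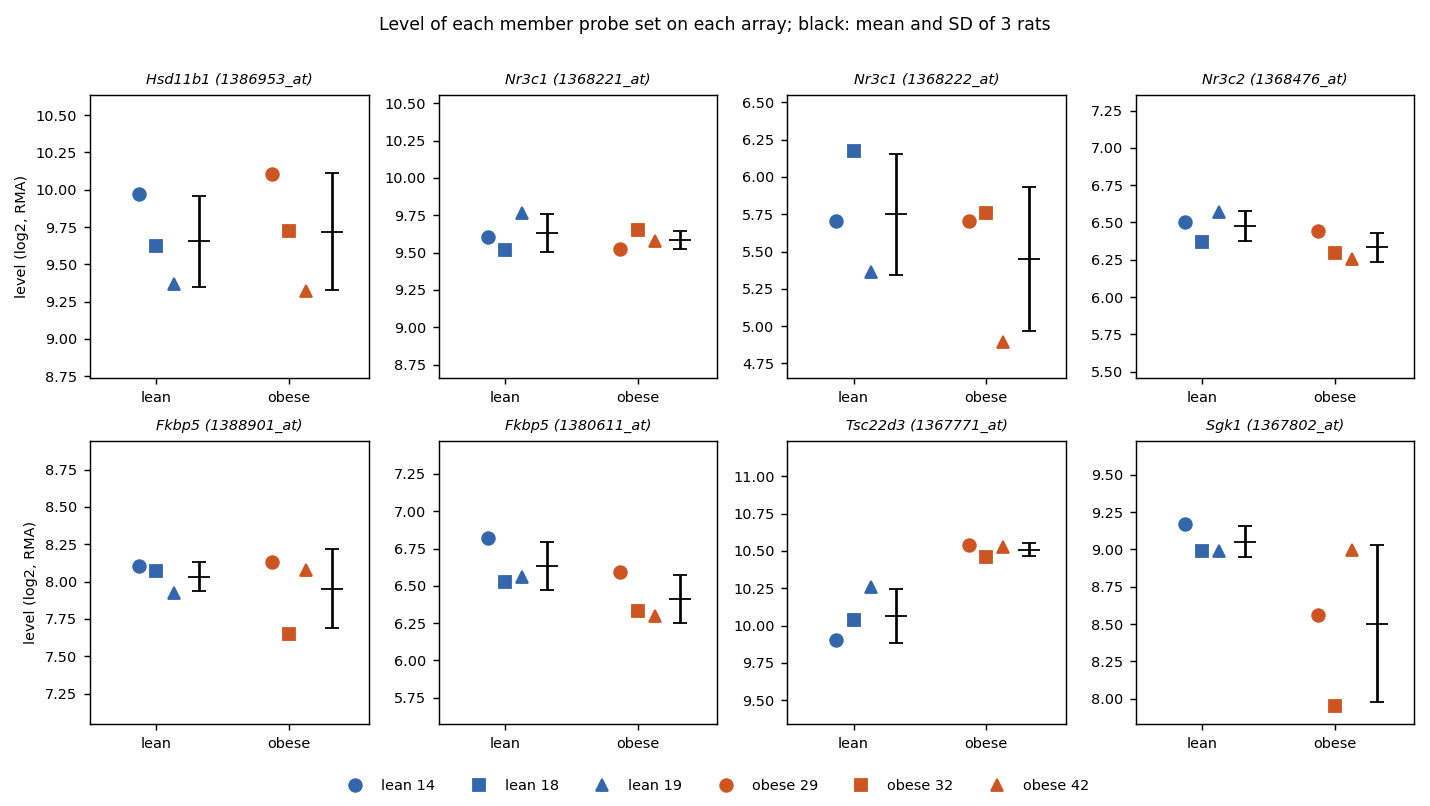
Level (log2, RMA) of each of the 8 probe sets on each array, lean rats in blue and obese rats in orange, with the group mean and SD in black; every panel spans the same height on the log2 axis, and the brighter probe set of Nr3c1 and of Fkbp5 comes first. The obese Tsc22d3 points, 10.46 to 10.54, all lie above the lean points, 9.90 to 10.26, whereas the obese Sgk1 points spread from 7.95 to 9.00.

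Hsd11b1, the activating enzyme, lay at 9.97, 9.63 and 9.37 on lean 14, 18 and 19 and at 10.10, 9.73 and 9.32 on obese 29, 32 and 42. The groups overlapped: the obese rats held both the highest and the lowest value. The means were 9.65 ± 0.30 (SD, n = 3) for lean and 9.72 ± 0.39 (SD, n = 3) for obese rats, and the difference was 0.063 (SE 0.23; limma adjusted p = 0.926). The spread between rats of the same diet was thus several times the difference between diets, and its residual SD was higher than that of 92.3% of probe sets. The 95% confidence interval of the fold change ran from 0.723 to 1.51, so neither a 1.5-fold rise nor a 1.3-fold fall of Hsd11b1 is outside what these arrays allow. The sign depended on single rats: the difference was -0.081 without lean 19 and -0.13 without obese 29, and 0.26 without obese 42. A fit without lean 14 and obese 42 together, added once the values were known, gave 0.42 (limma adjusted p = 0.469), and there the 2 obese rats lay above the 2 lean rats. It was 0.37 with the adipocyte marker mean described below as a covariate.

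The enzymes H6pd and Hsd11b2 act directly with Hsd11b1, and both were named after their values were seen. H6pd, which supplies the reduced cofactor that Hsd11b1 needs in the endoplasmic reticulum, lay at 6.51, 6.68 and 7.29 on lean 14, 18 and 19 and at 6.44, 6.40 and 6.83 on obese 29, 32 and 42, a difference of -0.27 (SE 0.22). Hsd11b2, the inactivating enzyme, lay at 6.56, 6.59 and 6.01 on the lean and at 6.63, 7.05 and 6.36 on the obese arrays, a difference of 0.29 (SE 0.22). Lean and obese rats overlapped for both, and neither passed limma's test (adjusted p = 0.653 for H6pd and 0.623 for Hsd11b2).

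Nr3c1, the glucocorticoid receptor, was steady on its brighter probe set, which lay at 9.61, 9.51 and 9.77 on lean 14, 18 and 19 and at 9.53, 9.65 and 9.58 on obese 29, 32 and 42. All obese values fell inside the lean range. The difference was -0.044 (SE 0.096; limma adjusted p = 0.876), and the 95% confidence interval of the fold change ran from 0.829 to 1.14. Leaving out lean 19 turned the sign, to 0.025.

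The second Nr3c1 probe set was much more variable. It lay at 5.71, 6.17 and 5.36 on lean 14, 18 and 19 and at 5.70, 5.76 and 4.90 on obese 29, 32 and 42, near the median level of all probe sets of 5.64. Obese 42 gave the lowest and lean 18 the highest value, and the other 4 rats lay between them with no order by diet. The difference was -0.30 (SE 0.28; limma adjusted p = 0.701), and it was -0.019 without obese 42. The residual SD was above that of 96.4% of probe sets, against 28.7% for the brighter one, and over the 6 arrays the 2 probe sets of Nr3c1 correlated at r = -0.36. Which transcripts each probe set detects was not analysed here.

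Nr3c2, the mineralocorticoid receptor, lay at 6.50, 6.37 and 6.57 on lean 14, 18 and 19 and at 6.44, 6.30 and 6.26 on obese 29, 32 and 42. All 3 obese rats lay below the lean mean of 6.48 ± 0.10 (SD, n = 3), but obese 29 lay above lean 18. The difference was -0.15 (SE 0.096; limma adjusted p = 0.580), with a 95% confidence interval of the fold change from 0.773 to 1.06. Without lean 18 or without obese 29 the groups did not overlap, and the difference was -0.20 in both cases.

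Fkbp5, the co-chaperone and target, had a brighter probe set at 8.11, 8.07 and 7.93 on lean 14, 18 and 19 and at 8.13, 7.65 and 8.08 on obese 29, 32 and 42. Obese 32 was the low rat, and the other 5 lay between 7.93 and 8.13. The difference was -0.082 (SE 0.14; limma adjusted p = 0.840), and without obese 32 it turned to 0.070. The dimmer probe set lay at 6.82, 6.52 and 6.56 on the lean and at 6.60, 6.33 and 6.30 on the obese arrays, with obese 29 above 2 lean rats. Its difference was -0.22 (SE 0.12; limma adjusted p = 0.515), and without obese 29 the groups did not overlap and the difference was -0.32. Across the 6 arrays the 2 Fkbp5 probe sets correlated at r = 0.50, a description only.

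Tsc22d3, the gene of GILZ, lay at 9.90, 10.03 and 10.26 on lean 14, 18 and 19 and at 10.54, 10.46 and 10.53 on obese 29, 32 and 42. Every obese rat lay above every lean rat, with a gap of 0.20 between lean 19 and obese 32. The obese rats were close together, at 10.51 ± 0.043 (SD, n = 3), against 10.07 ± 0.18 (SD, n = 3) for lean rats. The difference of 0.44 (SE 0.11) is 1.36-fold, with a 95% confidence interval from 1.14 to 1.62, and exceeds the spread within either group. Tsc22d3 had an unadjusted p of 0.00460 and ranked 521 among 31042 probe sets, and after adjustment over all of them it did not pass limma's test (adjusted p = 0.274). The direction was the same under all 16 alternatives, but many of them could not turn it. Because the groups do not overlap, leaving out or weighting arrays keeps the sign. Other filters, priors or units leave the difference of this single probe set as it was. The groups also did not overlap after median centring or quantile normalization, which change the array values. The 16 differences ran from 0.35 to 0.54 and the limma adjusted p-values from 0.214 to 0.996.

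Sgk1, the kinase, lay at 9.17, 8.99 and 8.99 on lean 14, 18 and 19 and at 8.56, 7.95 and 9.00 on obese 29, 32 and 42. The lean rats were nearly alike, obese 29 and obese 32 lay below them, and obese 42 lay at the lean level. Means were 9.05 ± 0.10 (SD, n = 3) and 8.50 ± 0.53 (SD, n = 3), so the obese rats varied far more among themselves. The difference was -0.55 (SE 0.24; limma adjusted p = 0.435), which is 1.46-fold, and the 95% confidence interval on the log2 scale ran from -1.12 to 0.024. It was -0.80 without obese 42 (limma adjusted p = 0.183), where the groups did not overlap, and -0.27 without obese 32. The estimates for Sgk1 and Tsc22d3, both glucocorticoid-induced genes, thus lay on opposite sides of 0. The Sgk1 interval includes 0, and neither gene passed the test.

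**Figure D2:**
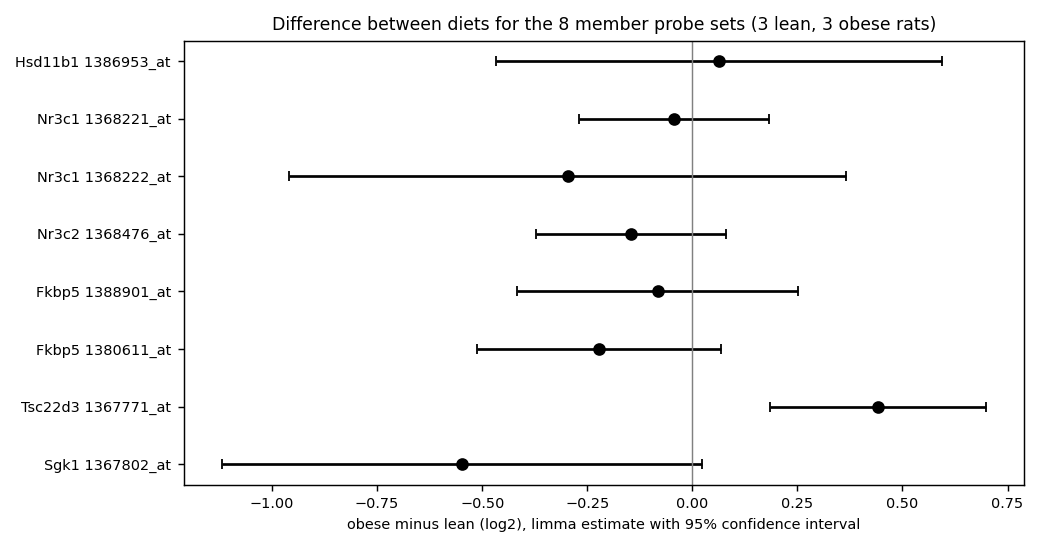
Obese minus lean difference (log2) of each of the 8 probe sets as estimated by limma from 3 lean and 3 obese rats, with its 95% confidence interval. The interval of Tsc22d3 is the only one that lies wholly above 0, before any adjustment for the number of probe sets, and that of Sgk1 reaches from -1.12 to 0.024.

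The members did not move as one set across the rats. Sgk1 and the brighter Fkbp5 probe set shared their low point on obese 32 and correlated at r = 0.78 over the 6 arrays, whereas Tsc22d3 correlated with them at r = -0.58 and r = -0.27. Hsd11b1 correlated with Tsc22d3, Fkbp5 and Sgk1 at r = -0.15, 0.21 and -0.24. These values describe 6 arrays that also differ in diet. A correlation of at least 0.95 with a member was reached by 10 genes for Nr3c1 and up to 58 for Sgk1 among 9400 genes above the median level. The genes named next are the highest among those 9400, and shared regulation was not tested. The gene most like Tsc22d3 over the 6 arrays was Tbc1d9b (r = 0.999), followed by Smoc1 (r = 0.988), and those most like Sgk1 were St6galnac2 (r = 0.994) and Prkab1 (r = 0.993). For Fkbp5 they were Nags (r = 0.993) and Tnfrsf9 (r = 0.988), for Hsd11b1 Hspa14 (r = 0.994) and Tspan6 (r = 0.993), for Nr3c1 Casq2 (r = 0.989) and Cyp2d4 (r = 0.977), and for Nr3c2 Fyco1 (r = 0.991) and Fxyd6 (r = 0.988).

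Cell type markers also differed between these rats, and in bulk tissue fewer cells of a type and less RNA per cell cannot be told apart. Adipocyte markers, such as adiponectin and perilipin 1, had 17 of 19 members higher on the obese arrays, and their mean level was 11.21 to 11.40 on lean and 11.55 to 11.81 on obese arrays, highest on obese 32. Leukocyte markers went the other way. Macrophage markers were lower in 18 of 18 members (9.28 to 9.78 on lean, 8.45 to 9.40 on obese arrays), T and NK cell markers in 16 of 17 (5.65 to 6.07 and 5.11 to 5.63), B cell markers in 8 of 8 (5.68 to 6.27 and 5.03 to 5.98) and mast cell markers in 10 of 10 (7.26 to 8.16 and 6.65 to 7.50). Of these, 17 macrophage and 10 mast cell markers lay above the median level of all probe sets. Only 7 of the 17 T and NK cell and 2 of the 8 B cell markers did, so those 2 lists rest largely on dim probe sets. The T and NK, B and mast cell means were all lowest on obese 32, the array on which Sgk1 and the brighter Fkbp5 probe set were lowest. The macrophage mean was instead lowest on obese 42 (8.45, against 9.05 on obese 32), where Sgk1 was at the lean level. On that array the brighter Fkbp5 probe set was not low (8.08), while the dimmer one had its lowest value (6.30). With the adipocyte marker mean as a covariate the Sgk1 difference was 0.20, that of the brighter and dimmer Fkbp5 probe sets 0.35 and 0.041, and that of Tsc22d3 0.36 (limma adjusted p = 0.996 for Sgk1, for Tsc22d3 and for the brighter, 0.997 for the dimmer Fkbp5 probe set). The adipocyte mean itself separates the diets, so diet and adipocyte level cannot be told apart in that fit.

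Other cell types moved with single arrays. Pancreatic acinar markers averaged 8.38 on lean 14 against 4.64 to 4.97 on the other arrays. With that mean as a covariate the Tsc22d3 difference was 0.38 and the Sgk1 difference -0.49, and without lean 14 they were 0.36 and -0.49. Endothelial markers were lower in 13 of 14 members and averaged 8.59 to 8.75 on lean and 7.97 to 8.90 on obese arrays, highest on obese 42, where Sgk1 was at the lean level, and lowest on obese 29. Smooth muscle and pericyte markers were lower in 13 of 15. Their mean was 8.36, 7.41 and 9.27 on lean 14, 18 and 19 and 7.53 to 7.82 on the obese arrays, so lean 18 lay below every obese rat. Adipose progenitor markers were higher in 7 and lower in 6 of 13 (10.03 to 10.17 on lean and 10.09 to 10.18 on obese arrays). The part of these cell types in the values of the 6 genes was not tested. As a measure of RNA integrity, control transcripts read 3' minus 5' gave 0.79 to 1.10 on lean and 0.93 to 1.28 on obese arrays. The exact two-sided permutation p was 0.40, where the smallest possible is 0.10. The highest value, 1.28, was on obese 42. That array also had the lowest quality weight from limma, 0.48, against 1.01 to 1.61 on the other arrays.

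**Figure D3:**
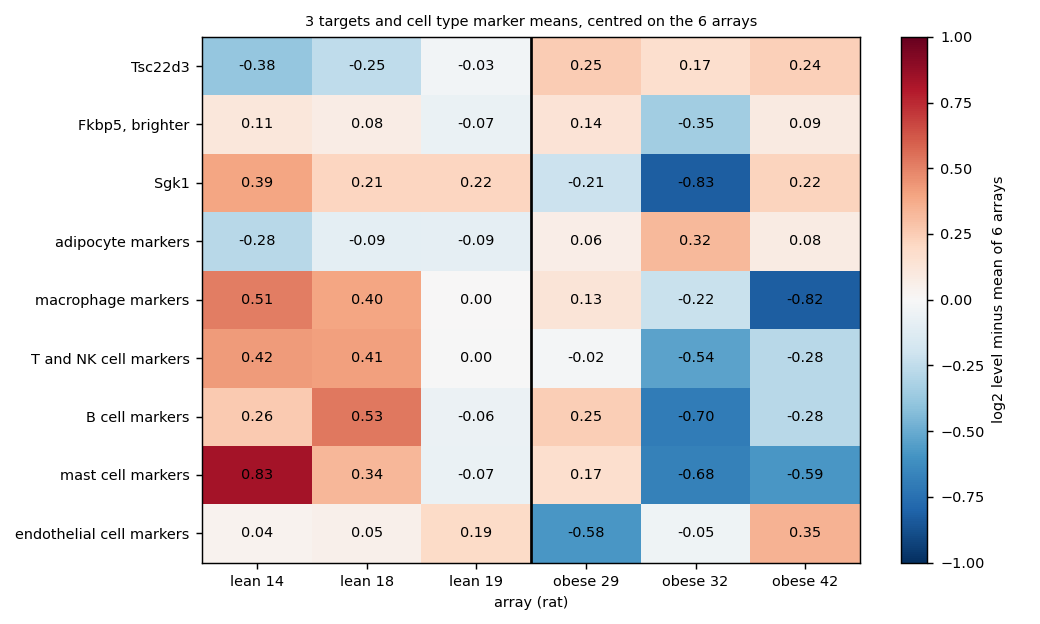
Log2 level of Tsc22d3, the brighter Fkbp5 probe set and Sgk1, and mean log2 level of 6 cell type marker lists, on each array after subtracting the mean of the 6 arrays; red is above and blue below that mean. Obese 32 is lowest for Sgk1 (-0.83), for Fkbp5 (-0.35) and for T and NK cell (-0.54), B cell (-0.70) and mast cell (-0.68) markers, and highest for adipocyte markers (0.32), whereas macrophage markers are lowest on obese 42 (-0.82, against -0.22 on obese 32).

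Other genes known as glucocorticoid targets gave no common direction. The list was not divided by whether the hormone raises or lowers each gene in fat. Of 42 measured target genes, 17 were higher and 25 lower in obese rats and the median was -0.077, against 7630 higher (53.7%) and 6587 lower of all 14217 genes and a median of 0.016. Limma called 0 of the 42 at an adjusted p under 0.05, against 0.00703% of all genes, taken by each gene's brightest probe set. An unadjusted p under 0.05 was reached by 7 higher and 8 lower targets, against 7.2% and 6.13% of all genes, and the groups did not overlap for 8 higher and 7 lower ones, against 12.2% and 8.18%. Those 15 of 42 are 35.7%, above the 20.4% of all genes, and they are split between both directions. Of the 42, 37 lie above the median level, against 9400 of all 14217 genes. The list was chosen with earlier results of these data known, so the larger share is a description only. The median was 0.035 without lean 19 and -0.017 without obese 29, so its sign rests on single rats.

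The targets with the smallest p were genes of fat metabolism and 1 signalling regulator. Acsl1, which activates fatty acids, lay at 12.08, 12.17 and 12.24 on lean 14, 18 and 19 and at 12.61, 12.68 and 12.61 on obese 29, 32 and 42, higher by 0.47 (SE 0.083; limma adjusted p = 0.183). Pck1, which makes the backbone of glycerol in fat, lay at 11.83 to 12.16 on lean and 12.31 to 12.57 on obese arrays, higher by 0.42 (SE 0.12), and Gpd1, which completes that route and also stands in the adipocyte marker list, at 11.84 to 12.38 and 12.52 to 12.82, higher by 0.52 (SE 0.15). Rgs2, a brake on G protein signalling, lay at 9.65 to 10.09 on lean and 9.34 to 9.42 on obese arrays, a difference of -0.55 (SE 0.13). For all 4 the groups did not overlap. The other bright probe set of Acsl1 was higher by 0.63, and its dim one, whose groups overlapped, by 0.091. The dimmer probe set of Rgs2 lay at -0.63, and that of Gpd1, whose groups overlapped, was higher by 0.34. With the adipocyte marker mean as a covariate the differences were 0.34 for Acsl1, -0.37 for Rgs2, 0.090 for Pck1 and 0.063 for Gpd1. That mean separates the diets and includes Gpd1 itself, so diet and adipocyte level cannot be told apart in these values. Of the targets widely used as acute readouts of the receptor, named here after their values were seen, Per1 lay at 0.24 (SE 0.17), Klf9 at -0.19 (SE 0.19) and Dusp1 at -0.066 (SE 0.12), all with overlapping groups.

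**Figure D4:**
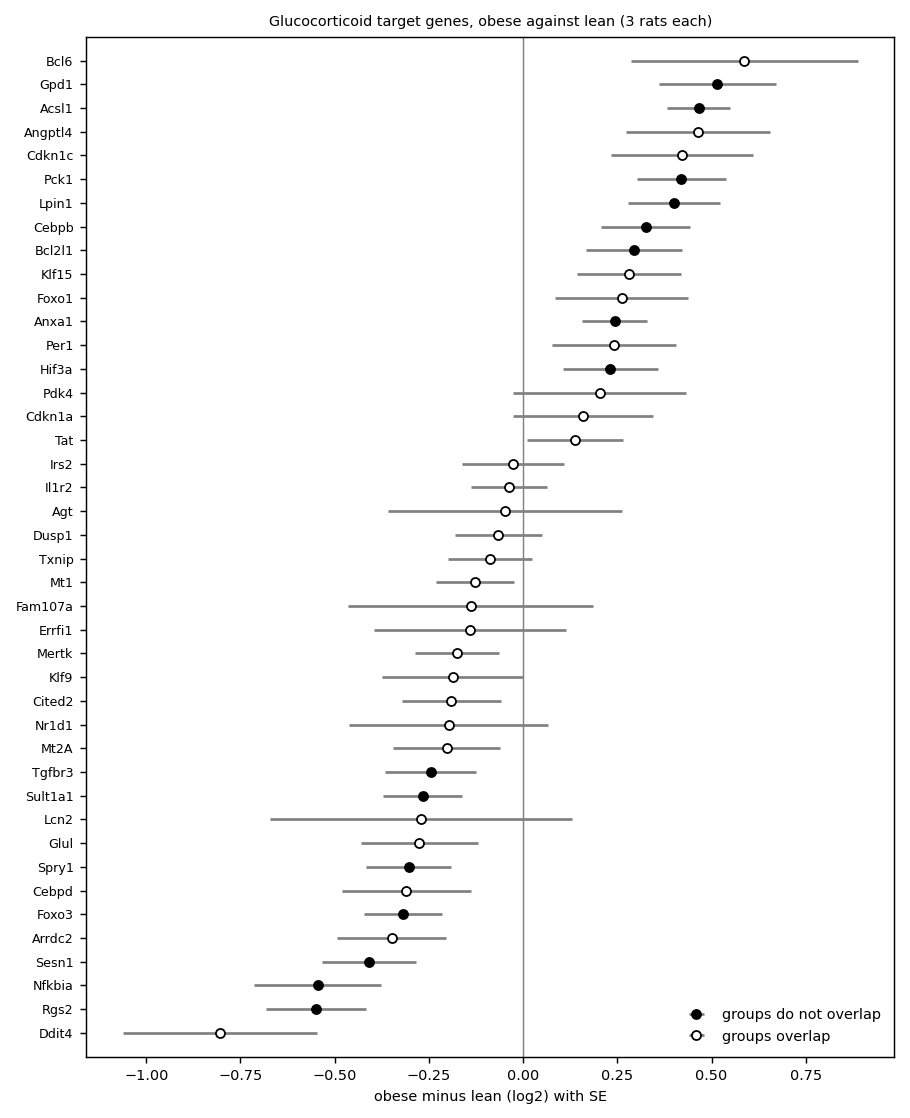
Obese minus lean difference (log2) with its SE for each of the 42 measured glucocorticoid target genes, by the brightest probe set of each gene, sorted by size. Filled points mark the 15 genes whose 3 lean and 3 obese rats do not overlap, 8 of them to the right of 0 and 7 to the left.

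Genes of steroid synthesis and breakdown ranged from dim to bright. Of 16 measured members of glucocorticoid metabolism 8 lay above the median level of all probe sets, 11 were higher and 5 lower on the obese arrays, where 53.7% of all genes were higher, and the median was 0.055. Limma called 0 at an adjusted p under 0.05, and 3 had an unadjusted p under 0.05, all higher, against 7.2% of all genes higher and 6.13% lower. Cyp11a1, which cleaves the side chain of cholesterol to begin steroid synthesis, lay at 6.36, 6.45 and 5.98 on lean 14, 18 and 19 and at 6.96, 7.10 and 6.54 on obese 29, 32 and 42, higher by 0.60 (SE 0.18; limma adjusted p = 0.330) with no overlap. Star, which carries cholesterol into mitochondria for that step, lay at 5.87, 7.13 and 6.77 on the lean and at 7.67, 7.64 and 7.11 on the obese arrays, higher by 0.89 (SE 0.32; limma adjusted p = 0.377), with lean 18 above obese 42. The Star difference was 0.53 without lean 14 and 0.080 with the adipocyte marker mean as a covariate. Its dimmer probe set was higher by 0.39 (SE 0.37). Cyp3a9, a steroid-hydroxylating P450, lay at 3.73 to 3.81 on lean and 4.05 to 4.21 on obese arrays, far below the median level of all probe sets. Cbr1, a carbonyl reductase, lay at 11.22 on lean 18 and between 8.74 and 9.48 on the other arrays; its difference was -0.88 (SE 0.52), and -0.23 without lean 18. The list of adrenal cortex markers had 7 of 8 members higher, and its mean was 5.56 over the lean and 5.78 over the obese arrays, with every obese array above every lean one. Of its members 3 lay above the median level of 5.64: Fdx1, the electron carrier of steroid synthesis, at 9.10 to 9.35, with Star and Cyp11a1, which are in both lists. Star (0.89) and Cyp11a1 (0.60) made up most of the difference in the list mean, which is thus not a separate result. Nr5a1, the steroidogenic transcription factor, lay at 3.95 to 4.07 on lean and 4.14 to 4.37 on obese arrays, higher by 0.29 (SE 0.096; limma adjusted p = 0.351) with no overlap. Cyp11b1, the last enzyme of corticosterone synthesis, was highest on lean 14, followed by obese 29 (5.91), and lay between 4.16 and 4.66 on the other arrays. Cyp21a1 lay at 4.82 to 5.05, Hsd3b1 at 3.97 to 4.17 and Nr0b1 at 4.35 to 4.68 over all arrays. These adrenal markers were named after their values were seen, and the part of adrenal tissue in the values of the 6 genes was not tested.

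Chaperones and co-regulators of the receptor also went both ways. Of 24 measured genes 15 were higher and 9 lower, with a median of 0.027, and limma called 0; 2 higher and 1 lower had an unadjusted p under 0.05, against 7.2% and 6.13% of all genes. The groups did not overlap for 4 higher and 2 lower, against 12.2% and 8.18% of all genes. Hsp90ab1, the constitutive chaperone that holds the receptor ready for hormone, lay at 12.02, 12.12 and 12.04 on lean 14, 18 and 19 and at 11.83, 11.86 and 11.77 on obese 29, 32 and 42, a difference of -0.24 (SE 0.080; limma adjusted p = 0.351); its dimmer probe set lay at -0.44, with overlapping groups. The co-chaperones Dnaja1 and Dnajb1, J-domain proteins of the chaperone relay that acts on the receptor before Hsp90, lay at 9.97 to 10.23 and 8.45 to 8.64 on lean and at 10.31 to 10.65 and 8.71 to 8.91 on obese arrays, higher by 0.42 (SE 0.12) and 0.26 (SE 0.097). The second probe set of Dnaja1 was higher by 0.47 and that of Dnajb1 by 0.050. Bag1, which regulates the release of client proteins, was higher by 0.21 (SE 0.090). For these 4 genes the groups did not overlap. The list median was -0.013 without lean 14 and above 0 with any other single rat left out.

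Among genes linked to the mineralocorticoid receptor and Sgk1, 12 of 20 were higher and 8 lower, with a median of 0.049 (0.019 without lean 18 and 0.081 without obese 42). Limma called 0, and 2 higher and 1 lower had an unadjusted p under 0.05, against 7.2% and 6.13% of all genes. Ndrg2, a substrate of Sgk1, lay at 10.59 to 10.85 on lean and 10.94 to 11.20 on obese arrays, higher by 0.32 (SE 0.11). Rictor, a subunit of the kinase complex that activates Sgk1, lay at 8.16 to 8.34 on lean and 7.68 to 8.09 on obese arrays, a difference of -0.35 (SE 0.12). Its lowest value was on obese 32, as for Sgk1. The dim second probe sets of Ndrg2 and Rictor, below the median level of all probe sets, lay at 0.014 and 0.0072. Nedd4, a ubiquitin ligase, was higher by 0.29 (SE 0.11) on its brightest probe set, while its other 5 probe sets ranged from -0.22 to 0.13. Slc12a3, the sodium chloride cotransporter of the kidney, was higher by 0.17 (SE 0.077) at a level below the median of all probe sets.

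Relatives of Tsc22d3 and Fkbp5 differed by small amounts. Of 14 measured TSC22 family and FK506-binding proteins 13 were higher and 1 lower, where 53.7% of all genes were higher, and the median was 0.046. Without lean 19, and also without obese 29, 9 were higher and 5 lower, and the median ran from 0.030 to 0.097 over the single rats left out. Limma called 0, and 1 had an unadjusted p under 0.05, higher, against 7.2% of all genes. That was Fkbp9, a chaperone of the endoplasmic reticulum, at 10.25 to 10.37 on lean and 10.45 to 10.78 on obese arrays (0.31 higher, SE 0.11). Tsc22d2 was higher by 0.19 (SE 0.14), Fkbp7 by 0.16 (SE 0.13) and Fkbp8 by 0.13 (SE 0.099), each with overlapping groups. A dimmer Fkbp8 probe set was higher by 0.060.

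Immediate early genes, which respond within minutes to handling and stress and share several stimuli with Sgk1, had 18 of 22 members higher and 4 lower, where 53.7% of all genes were higher, and a median of 0.12. Limma called 0, and 2 higher and 0 lower had an unadjusted p under 0.05, against 7.2% and 6.13% of all genes. Without obese 32 the list had 12 higher and 10 lower, and without lean 19 it had 14 and 8. The median was 0.062 without obese 32, 0.065 without lean 19 and 0.198 without obese 29. Nr4a3, an orphan nuclear receptor, lay at 4.82 to 4.97 on lean and 5.19 to 5.39 on obese arrays (0.44 higher, SE 0.095), below the median level, and Klf4 at 9.53 to 9.62 and 9.71 to 10.01 (0.32 higher, SE 0.10). Fosb was higher by 0.78 (SE 0.35) and Klf6 by 0.27 (SE 0.13), both with overlapping groups. The other probe sets of Nr4a3 were higher by 0.44 and 0.36, and those of Klf6 by 0.19 and 0.14. Sgk1 itself lay lower on the obese arrays.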

How the data were processed

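The deposited values are log2 expression levels. RMA and affy are named in the submitters' processing notes, without versions; no source used here says which chip definition served or whether the 6 arrays were normalized as 1 batch. The labels mark 5 of the 6 arrays as renewed analyses of earlier samples, all but obese 42. Of 31099 probe sets 57 controls were left out. Symbols came from the platform annotation, where 20826 probe sets have 1 symbol, 436 several and 9780 none, and the 6 members matched the reference gene table. No dim probe set was removed.

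Lean and obese rats were compared over all 31042 probe sets by lmFit and eBayes (two-sided, no covariate) in limma 3.58.1 under R 4.3.3. Benjamini-Hochberg adjustment was over all of them, with a call at 0.05. The test was checked on simulated data, where every added change was larger than any difference estimated for a member. It was therefore not checked at the size of the member differences. Differences are obese minus lean. Array medians were 5.63 to 5.68, and the number of arrays limits the precision (median SE 0.11). The 6 pathway lists (138 of 153 entries matched) and 10 marker lists (141 of 159) use each gene's brightest probe set. Up to 4 genes per list, those with the smallest p, and the 2 genes most correlated with each member were named; any other is said to be named after its values were seen. The members and lists were chosen with earlier results of these data known. Alternatives were other normalizations, units, filters, priors, weights, covariates and each array left out. Tables and plots used Python 3.11.15, pandas 2.3.3 and matplotlib 3.10.9.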

Additional observations from a re-analysis of the deposited data

How the results depend on the processing

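With 3 rats a group, limma called none of the 8 probe sets in any setting (lowest adjusted p 0.183). An unadjusted p under 0.05 was seen for Tsc22d3 in all settings but the adipocyte covariate, for Sgk1 with array weights, without obese 42 and without lean 14 and obese 42, and for the dimmer Fkbp5 probe set without obese 29. Directions were kept in 116 of 123 recomputed values. The exceptions were Hsd11b1 without lean 19 (-0.081) and without obese 29 (-0.13), range over single arrays left out -0.13 to 0.26; the brighter Nr3c1 probe set without lean 19 (0.025), range -0.10 to 0.025; the brighter Fkbp5 probe set without obese 32 (0.070), range -0.17 to 0.070, and with the adipocyte covariate (0.35); and with that covariate the dimmer Fkbp5 probe set (0.041) and Sgk1 (0.20). The cause was not tested. The named list genes kept their direction in all 380 values, none with an adjusted p under 0.127. They were picked by their small p in these same data, and the groups of many do not overlap. Many of the 380 values could therefore not turn, and the count is a description only. Of all probe sets on the array, 3 were called, against 1 with the brightest probe set of each gene, where fewer are tested, 1 without lean 14 and obese 42 (an alternative chosen after the data were seen), 1 to 31 without single arrays (31 without obese 42), 6 at an adjusted p under 0.10 and 3670 at an unadjusted p under 0.05. Over single arrays left out the median of the target genes ran from -0.14 to 0.035 (0.035 without lean 19), that of the chaperones from -0.013 to 0.070 and that of glucocorticoid metabolism from 0.027 to 0.079. No paired analysis was possible because lean and obese rats share no replicate number.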
